A study of Mus musculus with 6 samples.

Results

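The genes described here encode the subunits of the mitochondrial respiratory chain and of ATP synthase, with the few associated factors that share their symbols. Members were all probe sets annotated to exactly 1 symbol that starts with Ndufa, Ndufb, Ndufc, Ndufs or Ndufv, with Uqcr, with Cox4 to Cox8, or with Atp5, and those of Sdha, Sdhb, Sdhc and Sdhd. On this array a transcript is read by several short probes, whose combined value is that of the probe set. The choice used no measured value and no filter on dim signals. It gave 179 probe sets for 90 genes, of 45037 probe sets and 18193 singly annotated genes on the array. Of the 90 genes, 80 encode subunits: 34 of complex I, 4 of complex II, 8 of complex III, 17 of complex IV and 17 of complex V. Ndufa4 is counted to complex IV, where its protein resides. The other 10 genes are the complex I assembly factors Ndufaf1 to Ndufaf8, the Ndufa4 relative Ndufa4l2, and Cox7a2l, which joins complexes III and IV. A further 10 probe sets carried several symbols and were left out, and with them Ndufa11 and Ndufs6. The subunits encoded in mitochondrial DNA are not analysed here.

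Whole-brain RNA was compared between 4 female mice lacking melanotransferrin and 2 wild-type females, with 1 array per mouse. All 6 mice were 123 days old and came from the same litter, per the series' design text. The background of the wild type is given as C57BL/6 and that of the knockout as C57BL/6 - Lucy, with Lucy unexplained. Melanotransferrin, the product of Meltf, is related to transferrin, binds iron and is anchored in the cell membrane. The sources used here do not say how the gene was disrupted.

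The respiratory chain passes electrons from NADH (complex I) and succinate (complex II) through ubiquinol to complex III, cytochrome c and complex IV, which reduces oxygen. Complexes I, III and IV pump protons, and complex V uses the gradient to make ATP, on which firing neurons depend. Electrons move through iron-sulfur clusters in complexes I, II and III and through heme in complexes II, III and IV, so some subunits need iron and most do not. The comparison therefore asks whether transcripts of the chain, and of its iron-bearing subunits in particular, differ in the brain when an iron-binding protein is missing.

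Meltf itself had signals of 80.7, 132.9, 155.9 and 84.1 in knockouts 1 to 4 and of 146.5 and 228.7 in wild types 1 and 2. The groups overlapped on this dim probe set (log2 difference -0.55, SE 0.38, limma adjusted p = 0.784), so it did not tell the genotypes apart, and the groups rest on the labels alone. Wild type 1 had the lowest median signal of the 6 arrays, 192.5 against 238.2 to 278.3. In knockout 2 the summed signal of 4 cerebellar markers was 3463, against 39144 to 61774 on the other arrays, with Gabra6 at 87.6. Neuronal markers (Snap25, Syt1, Rbfox3, Tubb3, Stmn2) summed to 129090 to 146680 in the knockouts and to 110494 and 142485 in wild types 1 and 2. Of 4 astrocyte markers, 3 were lower in the knockout. Aqp4 (-0.64) and Gfap (-0.63) were lower without overlap, as were 6.56% of all genes. The 4 astrocyte markers summed to 15612 to 20239 in the knockouts and to 23597 and 21192 in the wild types. Their part in the values below was not tested. In whole tissue, fewer cells of a type and less RNA per cell cannot be told apart. Replicate numbers only name the arrays.

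No respiratory chain transcript passed the test. At an adjusted p below 0.05 in limma, 0 of the 179 probe sets were called, as were 0 of all 45037 (0%), and the smallest adjusted p among the members was 0.738. At an unadjusted p below 0.05, 2 member probe sets were higher in the knockout, against 4.92% of all probe sets, and 0 were lower, against 1.84%. The 4 knockout values all lay above both wild-type values on 5 member probe sets (2.79%, against 11.3% of all) and below both on 10 (5.59%, against 4.81% of all). The share of members lower without overlap was thus near that of the array, and the share higher without overlap was smaller. These shares were not matched for brightness: the median of the mean log2 value was 13.8 in members and 8.13 over all probe sets.

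Most subunit differences were small beside the spread between mice. Taking for each gene its brightest probe set, 47 of the 80 subunits were higher in the knockout and 33 lower, with a median log2 difference (knockout minus wild type) of 0.04. Over all 18193 genes, 9759 were higher and 8434 lower, with a median of 0.02. On these brightest probe sets, 6 of the 80 subunits (7.5%) were lower without overlap and 1 (1.25%) was higher without overlap, against 6.56% and 9.59% of all genes. The excess of higher subunits depended on the scaling and on the wild types: 29 were higher and 51 lower after quantile normalisation, and 6 and 74 after median centring. It was 7 and 73 without wild type 1 and 63 and 17 without wild type 2. Without knockout 2, whose cerebellar markers were low, 56 were higher and 24 lower. For 76 of the 80 subunits the difference was at most 0.3 in size. The unadjusted 95% confidence interval included 0 for 79 subunits, Cox6a2 being the exception. For 57 of them the whole interval lay within a 1.5-fold change in either direction. For the other 23 it did not, so a difference of that size was not excluded by these 6 arrays; 15 of the 17 complex IV subunits were among them.

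**Figure D1:**
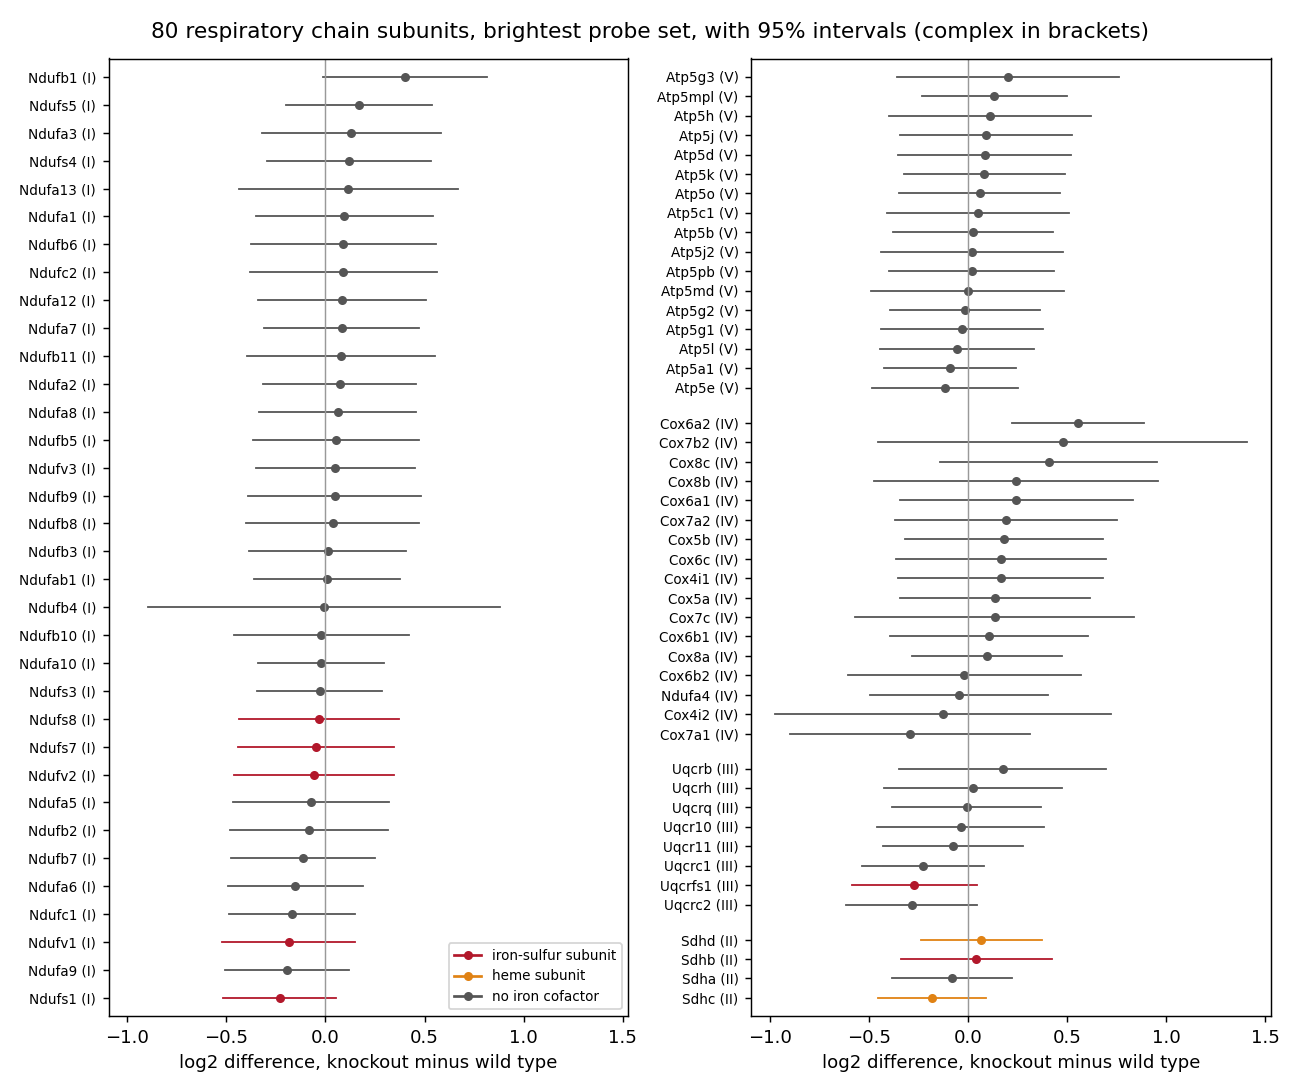
log2 difference (knockout minus wild type, horizontal axis) of the brightest probe set of each of the 80 subunits, with 95% confidence intervals, complex I on the left and complexes V, IV, III and II on the right. Red marks iron-sulfur subunits and orange heme subunits. The interval of Cox6a2, 0.22 to 0.89, is the one that does not include 0.

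Complex I oxidises NADH. Of its 34 subunits, 19 were higher and 15 lower in the knockout, with a median log2 difference of 0.02, and 0 had an unadjusted p below 0.05. Without wild type 1 there were 4 higher and 30 lower (median -0.18), and without wild type 2 there were 27 and 7 (median 0.25). Quantile normalisation gave 15 and 19 (median -0.01) and median centring 1 and 33. Its core subunits, which hold the flavin and the iron-sulfur clusters and are shared with bacteria, are represented by Ndufs1, Ndufs3, Ndufs7, Ndufs8, Ndufv1 and Ndufv2. All 6 had lower means in the knockout, with differences between -0.23 and -0.03, while 19 of the 28 accessory subunits had higher means. The medians were -0.05 for the core and 0.05 for the accessory subunits. All 6 core subunits were also lower under quantile normalisation and median centring, but 3 of the 6 without knockout 1 and 3 of the 6 without wild type 2. After median centring 27 of the 28 accessory subunits were lower.

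Ndufs1, the largest subunit and the carrier of several clusters, had signals of 6404, 6602, 7453 and 6884 in the knockouts and of 8597 and 7468 in the wild types. All 4 knockouts were below both wild types, knockout 3 by the narrowest margin. The means were 6836 ± 456 (SD, n = 4) and 8033 ± 799 (SD, n = 2), a log2 difference of -0.23 (SE 0.13) that did not pass the test (limma adjusted p = 0.748) and was -0.13 without wild type 1. Ndufv1, which binds NADH and the flavin, had a difference of -0.19 (SE 0.15; -0.12 without wild type 1), and its signals overlapped between the groups. For Ndufv2, Ndufs7 and Ndufs8 the differences were -0.06, -0.05 and -0.03, each smaller than its SE. The 6 probe sets of Ndufs8 ranged from -0.04 to 0.69, the highest on its dimmest probe set.

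Among the accessory subunits, Ndufa9 and Ndufc1 were lower in each knockout than in either wild type. That is 7.14% of the accessory subunits, near the 6.56% of all genes. Ndufa9, which lies near the ubiquinone site, had 12657, 10716, 13460 and 12605 in the knockouts and 14188 and 14013 in the wild types. Ndufc1 had 17825, 19432, 20708 and 19284 against 22022 and 21405. Their log2 differences were -0.19 (SE 0.14; -0.13 without knockout 2) and -0.17 (SE 0.14), and the other probe set of Ndufc1, also without overlap, gave -0.19. In the opposite direction no brightest probe set of complex I was without overlap, against 9.59% of all genes. One dim probe set each of Ndufc2 (0.54, SE 0.28) and Ndufab1, the mitochondrial acyl carrier protein (0.63, SE 0.34), was higher in all knockouts, whereas the brightest probe sets of these genes gave 0.09 and 0.01. The highest difference in complex I belonged to Ndufb1, named after its values were seen, at 0.40 (SE 0.19), with knockout 1 at 1553 below wild type 2 at 1639.

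Complex II, succinate dehydrogenase, belongs to both the chain and the citric acid cycle. Its 4 subunits split evenly, 2 higher and 2 lower, with a median of -0.02. Sdha, the flavoprotein, had 13094, 13044, 14324 and 15191 in the knockouts and 14675 and 14682 in the wild types, and the groups overlapped (-0.08, SE 0.14). On its next brightest probe set the groups did not overlap and the difference was -0.13 (SE 0.13). Sdhb, the iron-sulfur subunit, had 21110, 22736, 25926 and 26424 against 20812 and 25977, so the wild types spanned most of the knockout range (0.04, SE 0.17). Of the membrane subunits that hold the heme, Sdhd gave 0.07 (SE 0.14) and Sdhc gave -0.18 (SE 0.12). Leaving out wild type 1 brought Sdhc to -0.06, and leaving out wild type 2 to -0.30. The other probe sets of these heme subunits had the opposite sign, -0.06 for Sdhd and 0.06 for Sdhc.

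Complex III had the most negative median of the 5 complexes by the brightest probe sets, -0.06, with 6 of its 8 subunits lower in the knockout. Under quantile normalisation 7 were lower, and under median centring all 8, where 74 of the 80 subunits of the chain were lower. Without knockout 1 only 3 were lower and the median was 0.03. Without wild type 1 all 8 were lower (median -0.14), and without wild type 2 there were 4 higher and 4 lower (median -0.01). On 3 of the 8, against 6.56% of all genes, the knockouts all lay below both wild types: the core proteins Uqcrc1 and Uqcrc2, and Uqcrfs1, the Rieske protein, whose iron-sulfur cluster takes the electron from ubiquinol. Uqcrfs1 had signals of 11318, 11029, 13702 and 11282 in the knockouts and of 14401 and 14061 in the wild types. Knockout 3 lay close to the wild types and the other 3 knockouts lay together well below them. The means were 11833 ± 1253 (SD, n = 4) and 14231 ± 240 (SD, n = 2), a log2 difference of -0.27 (SE 0.14, limma adjusted p = 0.743).

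Uqcrc2 had 13988, 13993, 16551 and 13150 in the knockouts against 18472 and 16603, with knockout 3 just below wild type 2. Its difference was -0.28 (SE 0.15), and its other probe set gave -0.30 with overlapping groups. Uqcrc1 had 12297, 12426, 13578 and 12764 against 16434 and 13592, again with knockout 3 barely below wild type 2, and a difference of -0.23 (SE 0.14). Leaving out wild type 1 brought it to -0.09, and leaving out wild type 2 to -0.36. The small subunits of the complex had differences between -0.08 and 0.17, with Uqcrb at the top and Uqcr11 at the bottom. A dim probe set of Uqcrq, a ubiquinone-binding subunit, was 1 of the 2 with a low unadjusted p (1.29, SE 0.47, adjusted p = 0.738), at 160.1, 55.2, 88.3 and 274.5 against 33.6 and 13.6. The brightest probe set of Uqcrq gave -0.01, so the probe sets of this gene did not give 1 direction.

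**Figure D2:**
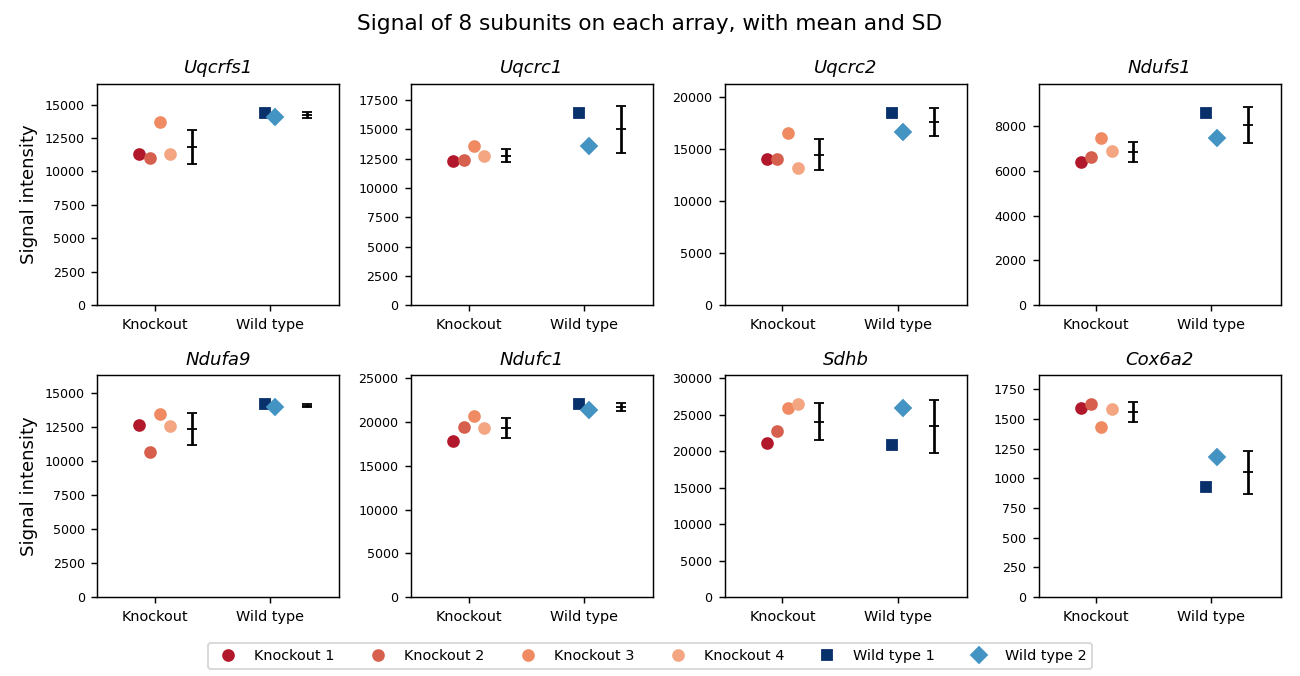
Signal intensity (vertical axis, linear, from 0) of 8 subunits on each of the 6 arrays, knockouts in red and wild types in blue, with the mean and SD of each group in black. In the panels of Uqcrfs1, Uqcrc1, Uqcrc2, Ndufs1, Ndufa9 and Ndufc1 every knockout lies below both wild types, in that of Sdhb the groups overlap, and in that of Cox6a2 every knockout lies above.

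Complex IV, cytochrome c oxidase, stood at the other end. Of its 17 nuclear subunits, 13 were higher in the knockout and 4 lower, with a median of 0.16. Yet only Cox6a2 was without overlap between the groups. Higher without overlap were thus 5.88% of the 17, against 9.59% of all genes. The widely expressed isoforms Cox4i1, Cox6a1, Cox6b1, Cox7a2 and Cox8a had differences of 0.16, 0.24, 0.11, 0.19 and 0.09, each smaller than its SE. Cox4i1, which binds ATP and adjusts the enzyme to energy state, shows the pattern: 50497, 60119, 67400 and 65524 in the knockouts, 44509 in wild type 1 and 65523 in wild type 2. Wild type 1 was the lowest of the 6 arrays and wild type 2 lay at the level of knockout 4. Without wild type 1 the difference for Cox4i1 was -0.11, and without wild type 2 it was 0.44. The same turn was seen in the complex: 3 of the 17 subunits were higher without wild type 1 and 15 without wild type 2, with medians of -0.13 and 0.35. The direction also depended on the scaling, with 7 of 17 higher and a median of -0.01 after quantile normalisation, and 5 of 17 and -0.05 after median centring.

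The muscle and heart isoform Cox6a2 had the smallest p of all members. Its signals were 1590, 1624, 1438 and 1587 in the knockouts and 924.6 and 1182 in the wild types, so every knockout was above both wild types. The means were 1560 ± 83.2 (SD, n = 4) and 1053 ± 182 (SD, n = 2). The 1.47-fold difference (log2 0.55, SE 0.15) had an unadjusted limma p of 0.00406. It did not pass the adjustment (adjusted p = 0.738), and its second, dimmer probe set gave -0.16 (SE 0.49). Muscle markers were measured beside it: 4 of 5 were higher in the knockout and Myl1 was lower (-0.58). Acta1 and Tnnt3 were higher without overlap, as were 9.59% of all genes. Tnnt3 was dim, at 61.5, 43.9, 105.9 and 161.8 in the knockouts and 15 and 14.8 in the wild types. The summed signal of the 5 markers was 3112 to 4028 in the knockouts and 3083 and 2664 in the wild types. Their part in the Cox6a2 value was not tested.

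The other tissue isoforms of complex IV gave no common direction. Cox7a1, the muscle partner of Cox7a2, had a difference of -0.29 (SE 0.27), and Cox8b, the muscle partner of Cox8a, had 0.24 (SE 0.32). The testis isoforms Cox6b2 and Cox8c had -0.02 and 0.41 (SE 0.24). The Cox8c value rested on wild type 1, at 443.8 against 738.2 to 934.8 in the knockouts and 859.1 in wild type 2, and was -0.03 without that array. Cox7a1 turned the other way, from -0.29 to 0.04, without wild type 2. Cox4i2, the isoform of lung and of oxygen-sensing cells, was dim on all arrays (-0.13, SE 0.38), and Ndufa4 gave -0.04 (SE 0.20). Ndufa4l2, a hypoxia-induced relative of Ndufa4 found in pericytes, gave -0.23 (SE 0.34), while 5 of 6 pericyte markers were lower, with sums of 11571 to 14439 in the knockouts and 16666 and 13219 in the wild types. Their part in it was not tested.

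Complex V, ATP synthase, had a narrow range of differences. Of its 17 subunits 11 were higher and 6 lower, with a median of 0.02 and differences between -0.12 and 0.20. Among the 17, 0 were without overlap, against 6.56% of all genes lower and 9.59% higher. Without wild type 1 all 17 were lower (median -0.14), and without wild type 2 there were 15 higher and 2 lower (median 0.21). Quantile normalisation gave 4 higher and 13 lower (median -0.04), and median centring 0 and 17. The 3 genes for the c subunit, which make the same mature ring protein, had differences of -0.03 for Atp5g1, -0.02 for Atp5g2 and 0.20 (SE 0.25) for Atp5g3. Atp5g3 had 39858, 44349, 54690 and 52817 in the knockouts and 31532 and 54103 in the wild types. Its wild types thus lay at opposite ends of the range, and without wild type 1 the difference was -0.19. A dim second probe set of Atp5g1 was without overlap, at 0.22 (SE 0.27). The subunits Atp5a1 and Atp5b, named after their values were seen, gave -0.09 and 0.02.

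**Figure D3:**
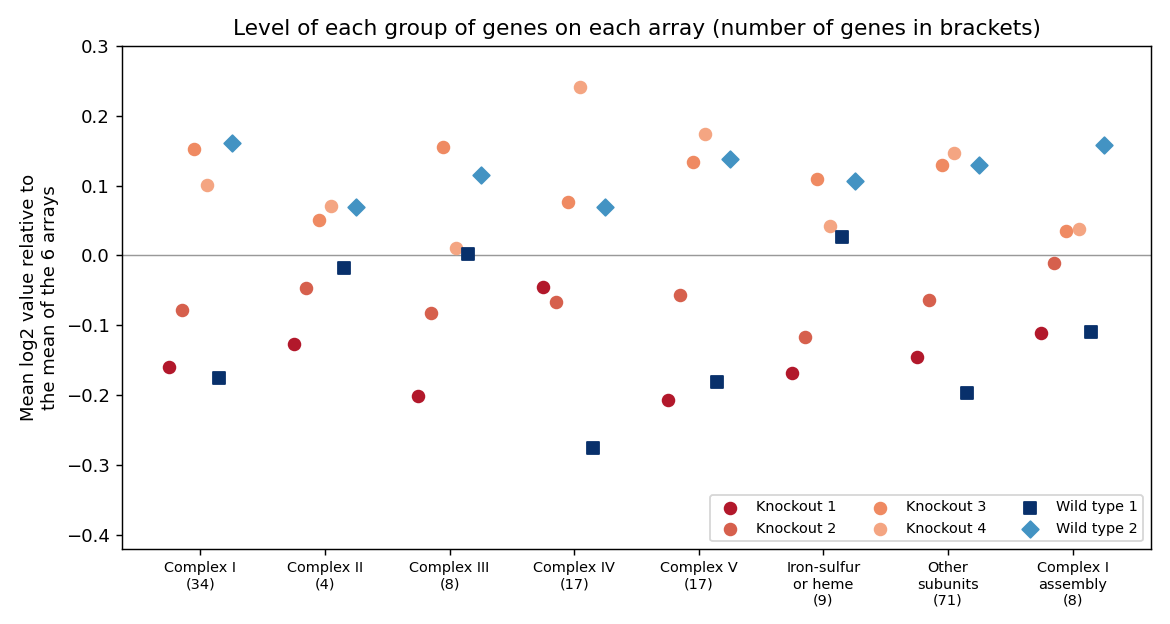
Level of each group of genes on each array: the mean over its genes of the log2 value minus that probe set's mean over the 6 arrays (vertical axis), 1 point per array. Wild type 1 is the lowest array for complex IV, at -0.28, and lies near the middle for the iron-sulfur or heme subunits, at 0.03, while wild type 2 is above 0 in all groups.

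The iron-bearing subunits were set against the rest. The 9 genes are the iron-sulfur subunits Ndufs1, Ndufs7, Ndufs8, Ndufv1, Ndufv2, Sdhb and Uqcrfs1 and the heme subunits Sdhc and Sdhd. Of them, 2 were higher and 7 lower, with a median of -0.06, and 2 of the 9 were lower without overlap (Ndufs1 and Uqcrfs1), against 6.56% of all genes. Quantile normalisation also gave 7 lower (median -0.11) and median centring 9 (median -0.27), but without wild type 2 there were 4 lower and a median of 0.01. Of the 71 subunits without iron, 45 were higher and 26 lower, with a median of 0.05, which was -0.02 after quantile normalisation and -0.16 after median centring. The mean level of the iron-bearing subunits minus that of the others was -0.02, -0.05, -0.02 and -0.11 in knockouts 1 to 4, 0.22 in wild type 1 and -0.02 in wild type 2. Wild type 2 lay inside the knockout range, and wild type 1 alone stood above it. Over all probe sets the iron-bearing median minus the other median was -0.10, and it was 0.01 without wild type 1. For complex I, core minus accessory was -0.080 to -0.026 in the knockouts, 0.26 in wild type 1 and -0.084 in wild type 2, so wild type 1 again stood far above the rest and wild type 2 lay just below the lowest knockout. The contrast between iron-bearing and other subunits was thus not larger than the distance between the wild-type mice.

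The same held for the chain as a whole. The mean subunit level was -0.15, -0.07, 0.13 and 0.14 in knockouts 1 to 4, -0.17 in wild type 1 and 0.13 in wild type 2, so the wild types lay near opposite ends of the knockout range. Wild type 1 was below wild type 2 in 68 of the 80 subunits, with a median difference of -0.34. The knockout mean was above wild type 1 in 63 of the 80 subunits (median 0.21) and above wild type 2 in 7 (median -0.13). This distance between the wild types was smallest in complexes II and III, where their mean levels differed by -0.09 and -0.11, and reached -0.35 in complex IV, -0.34 in complex I and -0.32 in complex V.

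Among the brightest probe sets, members and non-members shared this pattern. Respiratory chain probe sets were among the brightest on the array: 70 of the 90 genes had their brightest probe set in the top 5%. This describes the signal and does not rank transcripts by abundance. Among the 26 member probe sets with a mean log2 value of 15 or more, wild type 1 minus wild type 2 had a median of -0.55, and among the 239 other probe sets that bright it was -0.54. At mean log2 values between 10 and 15, wild type 1 minus wild type 2 had a more negative median in members than in other probe sets: -0.39 against 0.07 between 10 and 12, -0.16 against 0.07 between 12 and 13, -0.14 against -0.01 between 13 and 14, and -0.30 against -0.20 between 14 and 15. At 15 and above, the knockout mean minus wild type 1 had medians of 0.40 and 0.43 in these members and non-members. Between 14 and 15, the median knockout difference was 0.04 in 54 members and 0.05 in 410 others. Between 13 and 14, it was -0.11 in 34 members and -0.02 in 965 others. The 99th percentile of the signals of non-members was lowest in wild type 1 and knockout 1, at 20235 and 20273, against 21771 to 22750 on the other arrays, and the same arrays had the lowest subunit levels. The part of the brightness pattern in the differences between complexes was not tested.

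**Figure D4:**
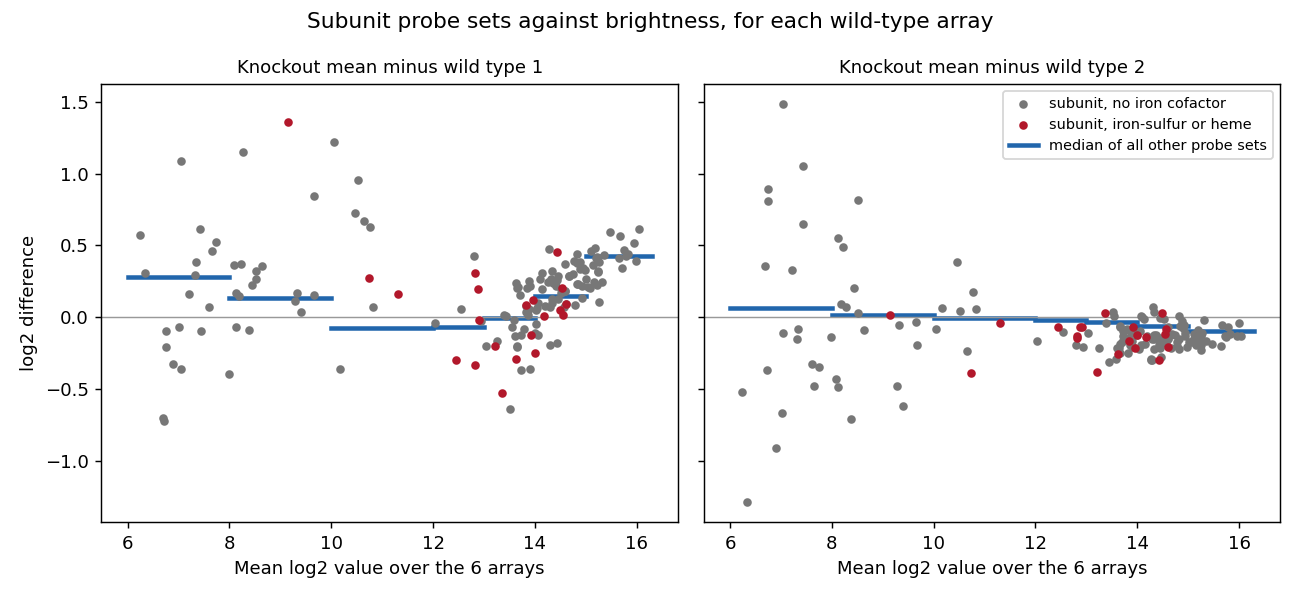
log2 difference of the knockout mean from wild type 1 (left) and from wild type 2 (right) for each of the 165 subunit probe sets, against its mean log2 value over the 6 arrays. Blue bars are the medians of all other probe sets in the same range of brightness, with the dimmest range drawn from 6. At 15 and above the other probe sets have a median of 0.43 against wild type 1 and of -0.10 against wild type 2.

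Of the 51 genes with several probe sets, 26 had differences of both signs among them, and 0 had probe sets on opposite sides at an unadjusted p below 0.05. The range between probe sets of a gene had a median of 0.17 and reached 1.52 in Uqcrq. Nearly all members were brighter than the dimmest 40% of the array: 164 of the 179 probe sets, and the brightest one of 89 of the 90 genes, Cox7b2 being the exception. This cut is not a detection call. Cox4i2 and Ndufb4 lay just above it, at the 40.3 and 41.2 percentiles of brightness.

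The associated factors were lower more often than higher, 7 against 3, with a median of -0.10 (0.03 without wild type 2), and 0 reached an unadjusted p below 0.05. Ndufaf7, a methyltransferase needed for complex I assembly, had 1348, 1260, 1351 and 1431 in the knockouts and 1505 and 1501 in the wild types, without overlap (-0.15, SE 0.13). Lower without overlap were 10% of the associated factors, against 6.56% of all genes. Ndufaf6 had the largest difference, -0.40 (SE 0.21), and its groups overlapped. Both were named after their values were seen. Cox7a2l, measured by 3 probe sets, gave -0.18, -0.12 and -0.10.

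Other genes of the pathway were taken from set lists, in which 0 genes were called. Of 19 electron carriers and their enzymes, 4 were higher and 15 lower, with a median of -0.09. The knockout mean was above wild type 1 in 4 of these 19 and above wild type 2 in 9. Cytochrome c (Cycs) had 0.12. Cytochrome c1 (Cyc1), a heme subunit of complex III whose symbol left it out of the members, had 0.00. Etfa, which feeds electrons from fatty acid oxidation, had -0.35 (SE 0.16), and Coq9, needed to make ubiquinone, had -0.33 (SE 0.13); these were the 2 with an unadjusted p below 0.05. Coq9 and Coq5 (-0.18) were lower without overlap, 10.5% of the list against 6.56% of all genes. Of 13 citric acid cycle genes, 2 were higher and 11 lower, with a median of -0.16, and Sucla2 (-0.28), Fh1 (-0.22) and Idh3b (-0.16) were lower in every knockout than in both wild types, 3 of 13 against 6.56% of all genes. Of 46 assembly factors, 20 were higher and 26 lower, with a median of -0.02. Cox10 (0.18) and Sco2 (0.22) were higher without overlap, 4.35% of the list against 9.59% of all genes. Lower without overlap were 2.17% of the list, against 6.56% of all genes. Of 11 outer membrane and import genes, 4 were higher and 7 lower (median -0.08). Vdac2 (-0.25), Vdac3 (-0.18) and Tomm22 (-0.15) were lower without overlap, 27.3% of the list against 6.56% of all genes.

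Of 13 regulators of mitochondrial gene expression, 4 were higher and 9 lower, with a median of -0.13. Tfam, which packages mitochondrial DNA and helps start its transcription, had 1840, 1419, 1569 and 1716 in the knockouts and 2907 and 1824 in the wild types (-0.49, SE 0.19, limma adjusted p = 0.738). Only wild type 1 stood clear of the knockouts. Gabpa, a subunit of the factor NRF2 that binds promoters of complex IV genes, had 779.0, 671.6, 627.6 and 552.7 against 934.7 and 870.5, without overlap (-0.44, SE 0.19, adjusted p = 0.738). Ppargc1a, the coactivator of mitochondrial biogenesis, had -0.13 (SE 0.12) and was also lower without overlap. Yy1 had 0.17 (SE 0.11) and was higher without overlap, and Nrf1 had 0.12 (SE 0.29). Of the 13 regulators, 15.4% were lower and 7.69% higher without overlap, against 6.56% and 9.59% of all genes.

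NRF1 and YY1 are classic regulators of these genes, so their motif letters were looked for in the promoters, from 250 bases before to 50 after the annotated start, in RefSeq sequences of GRCm38.p6. Of the 90 genes, 74 had an entry. The NRF1 letters GCGCANGCG, on either strand, were in the promoters of 20 of the 74 genes (27.0%), against 1901 of 27025 genes in all (7.03%). The YY1 letters AAGATGGCG, on either strand, were in 7 of the 74 (9.46%), against 443 of all (1.64%). The motifs share no overlapping match here, since 0 of the 74 held both. Members with and without the NRF1 letters had median log2 differences of 0.05 and 0.02, and those with and without the YY1 letters had -0.05 and 0.04. With the NRF1 letters 11 were higher and 9 lower, Uqcrc1 (-0.23) having the lowest difference. With the YY1 letters 3 were higher (Ndufs4 0.12, Atp5j 0.09, Atp5j2 0.02) and 4 lower. Of these 4, Ndufa9 (-0.19) and Ndufc1 (-0.17) had the lowest differences. A match describes letters in this window and is not a binding site. Printed below are 2 promoters with the NRF1 letters, of Uqcrc1, which was lower in every knockout, and of Sdhd, a heme subunit whose groups overlapped (chr9:108936398-108936697, plus strand, and chr9:50603800-50604099, minus strand). They are followed by 2 with the YY1 letters, of Ndufa9 and Ndufc1, both lower in every knockout (chr6:126849095-126849394 and chr3:51408906-51409205, minus strand). Each runs 5′ to 3′ on the strand of its gene, and capitals mark the matched letters.
Uqcrc1: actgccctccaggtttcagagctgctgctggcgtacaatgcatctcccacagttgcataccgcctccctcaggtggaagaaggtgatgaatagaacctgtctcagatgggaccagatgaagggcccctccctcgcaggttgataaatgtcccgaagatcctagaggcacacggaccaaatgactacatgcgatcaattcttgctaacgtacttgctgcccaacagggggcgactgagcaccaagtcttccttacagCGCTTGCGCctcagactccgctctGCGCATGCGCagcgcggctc
Sdhd: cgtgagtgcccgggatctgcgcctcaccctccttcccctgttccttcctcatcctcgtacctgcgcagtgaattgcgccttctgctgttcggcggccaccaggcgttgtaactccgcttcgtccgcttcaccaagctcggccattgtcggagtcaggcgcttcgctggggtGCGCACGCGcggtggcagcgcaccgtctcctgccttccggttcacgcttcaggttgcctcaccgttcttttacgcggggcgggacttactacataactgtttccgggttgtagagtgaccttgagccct
Ndufa9: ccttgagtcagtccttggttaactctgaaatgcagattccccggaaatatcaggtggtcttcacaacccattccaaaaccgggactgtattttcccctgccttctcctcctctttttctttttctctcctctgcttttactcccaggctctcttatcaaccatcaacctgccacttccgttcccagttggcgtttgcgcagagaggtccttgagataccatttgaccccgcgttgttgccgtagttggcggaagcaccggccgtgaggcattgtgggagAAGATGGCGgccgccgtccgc
Ndufc1: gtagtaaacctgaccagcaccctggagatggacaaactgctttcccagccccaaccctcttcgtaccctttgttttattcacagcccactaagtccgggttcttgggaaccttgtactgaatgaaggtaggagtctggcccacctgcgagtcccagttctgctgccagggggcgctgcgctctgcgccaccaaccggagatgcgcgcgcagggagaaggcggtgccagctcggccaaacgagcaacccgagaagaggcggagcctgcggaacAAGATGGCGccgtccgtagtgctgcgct
In Uqcrc1 the NRF1 letters matched 3 times. The first match starts at base 257 of the window, on the opposite strand, and the next at base 281, on the strand of the gene. The last is on the opposite strand and overlaps the one at base 281. In Sdhd the letters start at base 172. In Ndufa9 and Ndufc1 the YY1 letters start at bases 280 and 273, both downstream of the annotated start.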

How the data were processed

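Transcripts were measured in total RNA of 6 brains on Affymetrix 430 2.0 mouse arrays. The values the authors deposited are linear signal intensities. The software was GCOS 1.3, per the submitters' processing notes. The method of combining and scaling probes (not given in the sources used here) can alter dim and very bright values most. Trimmed to their middle 96%, the intensities averaged 1000 on each array. Of 45101 probe sets, 64 controls were left out.

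Values were taken as log2(intensity + 49.6), the offset being the 20th percentile of the table, which understates differences of dim genes. Knockout minus wild type was fitted on 45037 probe sets with lmFit and eBayes with an intensity trend (limma 3.58.1, R 4.3.3), 2-sided, with Benjamini-Hochberg adjustment over all of them and a threshold of 0.05. The script was tested on simulated data. Unadjusted p-values, medians and counts are descriptive. Depth has no counterpart on arrays, and the number of arrays limits the precision. Each array is 1 mouse.

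Genes were named by rule: the iron-bearing subunits and Sdha, tissue isoforms and c subunit genes, and, in complexes I, III, IV and V and each direction, the 3 with the smallest p among probe sets whose groups did not overlap; any gene past the threshold or with probe sets opposed at p below 0.05 was to be added, and there was none. Others are said to be chosen after their values were seen. Unless stated, a gene's value is from its brightest probe set. The members, lists and rule were chosen with earlier results of these data known. Alternatives were 2 other offsets, a filter on the dimmest 40%, quantile normalisation, median centring, no intensity trend, 1 probe set per gene, and leaving out each array. Plots were drawn in Python 3.11.15 with matplotlib 3.10.9.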

Additional observations from a re-analysis of the deposited data

Results flagged for a closer look

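Of 47 groups of values checked for a single array far from the rest of its group, 1 stood out: the Uqcrfs1 signal of knockout 3, 13702, against 11029 to 11318 in the other knockouts, a gap of 0.892 of the group's range. The criterion is Dixon's ratio at its 95% level, so chance alone marks about 1 in 20 such groups.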

How the results depend on the processing

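The count of 0 called members held under every alternative run; without wild type 2, 171 probe sets of the array were called, 0 of them members. Member probe sets higher at an unadjusted p below 0.05 numbered 2, and 1 without dim probe sets, 1 with median centring, 1 with 1 probe set per gene and 4 without the intensity trend; leaving out arrays gave 2 to 15. Those lower numbered 0, and 1 with quantile normalisation and 9 with median centring; leaving out arrays gave 0 to 4.

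Median centring moved the median of all probe sets from 0.08 to -0.14, and with it the medians to -0.19 for all member probe sets (0.02 as reported), -0.18 for complex I (0.04), -0.29 for complex II (-0.08), -0.27 for complex III (-0.06), -0.078 for complex IV (0.14), -0.18 for complex V (0.03), -0.26 for iron-bearing (-0.05) and -0.17 for other subunits (0.05). With quantile normalisation the brightest probe sets had medians of -0.11 for iron-bearing and -0.02 for other subunits. Over all subunit probe sets, iron-bearing minus other subunits was -0.029 with that scaling. Leaving out each array in turn gave -0.13 to 0.18 for all members, -0.15 to 0.21 for complex I, -0.13 to 0.17 for complex II, -0.11 to 0.03 for complex III, -0.13 to 0.35 for complex IV, -0.12 to 0.21 for complex V, -0.12 to 0.05 for iron-bearing subunits, -0.13 to 0.22 for the others and -0.16 to 0.010 for their difference.

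Of 33 named genes, 11 differed by more than 1 SE, and for these the direction was compared. It reversed for Cox7a1 (0.037 without wild type 2, lowest -0.62) and for Cox8c (-0.034 without wild type 1, highest 0.85). No paired analysis was possible because the labels give no shared replicate numbers. The causes were not tested.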
